A study of Mus musculus with 17 samples.

Results

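The transcriptomes of CD8 T cells labelled as knocked out for Asxl1 and of those labelled as knocked out for Dnmt3a were compared directly. The comparison used every library that the labels assign to these groups, 4 labelled Asxl1 KO and 4 labelled Dnmt3a KO, which make 8 of the 17 libraries of the series. All 17 libraries entered the statistical model, so the 5 Rosa KO and 4 Tet2 KO libraries added to the estimate of the spread and tied together the runs of library numbers described below. The cells came from mouse spleen and carried the congenic marker Thy1.1 together with CD8 in all 4 groups. A group is defined by its genetic modification label alone: Asxl1 KO, Dnmt3a KO, Tet2 KO, or Rosa KO, taken here as the control for targeting. How the knockouts were made, the age of the mice, any treatment, and whether a library came from 1 animal or a pool are not stated in the labels used here. Nothing says that replicates are separate animals, so the p-values refer to library-to-library spread, part of which may be technical.

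Both genes are recurrently mutated in clonal hematopoiesis, and the series title names their role in stemness of CD8 T cells under immunotherapy. DNMT3A adds methyl groups to unmethylated CpG cytosines, and in T cells it is known for methylating loci that are shut off as cells leave the naive and memory-like states. ASXL1 has no catalytic activity of its own. It is a cofactor of the BAP1 deubiquitinase, which removes the ubiquitin that Polycomb repressive complex 1 places on histones. The direct comparison asks which transcripts differ between the loss of a DNA methylation enzyme and the loss of a Polycomb-linked cofactor in the same kind of cell.

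The 8 libraries held 17387403 to 27248878 counts over 24594 genes. The library numbers of the labels fall into 3 separate runs, which the labels do not call batches. Run 1 held Asxl1 KO 1 and Dnmt3a KO 1 and 2, run 2 held Asxl1 KO 2 and Dnmt3a KO 3 and 4, and run 3 held Asxl1 KO 3 and 4 with no Dnmt3a KO library. Asxl1 KO 1 stood apart from the other libraries. On the first principal component of the 8 libraries (32.1% of variance) it lay at -163, and the other 7 lay between -26.6 and 54.9. It also had the fewest genes with a count (12901). Asxl1 KO 2 correlated more closely with the Dnmt3a KO libraries (mean r = 0.913 over genes) than with those of its own group (0.887). The CD8 T cell markers were present in every library: Cd8a had 657 to 1240 CPM (counts scaled to library size by TMM) in Asxl1 KO and 756 to 977 CPM in Dnmt3a KO. Asxl1 KO 2 was the lowest of the 8 libraries for Cd8a, Cd8b1 (400 CPM), Thy1 (297), Lck (342) and Cd247 (129). For Cd3d (215 CPM), Cd3e (1565) and Cd3g (491) the lowest was Dnmt3a KO 3. The targeted transcripts were still detected. Asxl1 had 70.3, 146, 87.3 and 114 CPM in Asxl1 KO 1 to 4 and 116, 114, 145 and 141 CPM in Dnmt3a KO 1 to 4. Dnmt3a had 61.4, 98.1, 62.96 and 51.6 CPM in Asxl1 KO and 88.1, 71.7, 115 and 76.3 CPM in Dnmt3a KO. The groups overlapped for both transcripts and neither passed the test (log2 fold change -0.10 ± 0.24 (SE) for Asxl1 and -0.06 ± 0.27 (SE) for Dnmt3a). How the alleles were altered is not given, so these levels do not check the labels. Dnmt3a also overlaps the antisense gene Dnmt3aos.

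The 2 knockouts differed in a small set of genes, most of which were higher in Asxl1 KO. A log2 fold change is given throughout as Asxl1 KO minus Dnmt3a KO, with its standard error, from edgeR's quasi-likelihood F test with group and run as terms. A gene passed at a Benjamini-Hochberg adjusted p under 0.05. Of 13881 genes tested, 38 passed as higher in Asxl1 KO (0.274%) and 11 as lower (0.0792%), which makes 49 in either direction (0.353%). The higher genes spanned log2 fold changes of 0.76 to 2.68 and the lower genes -0.65 to -4.11, and the median over all tested genes was 0.00056. At an unadjusted p under 0.05 there were 873 higher and 652 lower genes. The 4 Asxl1 KO libraries all lay above the 4 Dnmt3a KO libraries in CPM for 27 of the 38 higher genes, and all lay below them for 6 of the 11 lower genes. Over all tested genes, complete separation occurred in 2.05% upward and 2.36% downward, 4.4% in all. The size of the set depended on single libraries. Without Asxl1 KO 2 the test gave 156 higher and 80 lower genes. It gave 16 and 3 without Asxl1 KO 1, 19 and 7 without Asxl1 KO 3, 21 and 6 without Asxl1 KO 4, 8 and 3 without Dnmt3a KO 1, 12 and 4 without Dnmt3a KO 2, and 18 and 2 without Dnmt3a KO 3. Among the other groups it gave 23 and 6 without Rosa KO 2, 20 and 6 without Rosa KO 4, 24 and 6 without Rosa KO 5, 21 and 7 without Tet2 KO 3, and 18 and 5 without Tet2 KO 4. Most of the 30 alternative fits share most of their libraries, although the fits of run 1 alone and run 2 alone share none. In all 30, no gene of the 49 changed direction. In all 17 fits that left out 1 library, 8 of the 49 passed, among them Cd7, Sh2d2a, Rgs1, Ctsw, Ctla2a, Gpr55 and Ifrd1.

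**Figure D1:**
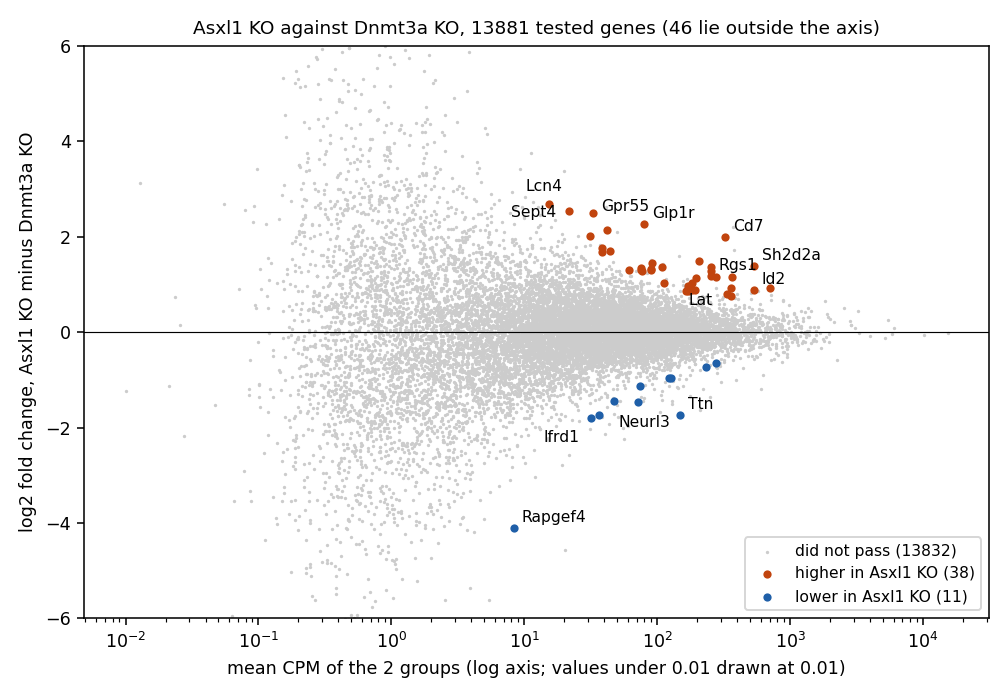
Each point is 1 of 13881 tested genes, placed by its mean CPM over both groups (log axis) and its log2 fold change, Asxl1 KO minus Dnmt3a KO. The 38 genes that passed as higher in Asxl1 KO (red) outnumber the 11 that passed as lower (blue), and Cd7 lies at a log2 fold change of 2.00.

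The list of inhibitory receptors and terminal exhaustion genes held the most genes that passed. Exhaustion is the state that CD8 T cells enter under lasting antigen, in which inhibitory receptors accumulate while a stem-like fraction holding Tcf7 sustains the response. Of its 29 tested members, 7 passed as higher in Asxl1 KO and none as lower, beside 0.274% of all genes. This list, like those below, was chosen with earlier results of these data known, so its share is a description. The list's median log2 fold change was 0.43, and 23 of its 29 members were above 0, beside 6943 of all 13881 genes. With DESeq2, 10 members passed as higher and none as lower, beside 140 higher and 80 lower of all 13881 genes. List counts at an unadjusted p under 0.05, given below, stand beside 873 higher and 652 lower of all 13881 genes.

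Cd7, an immunoglobulin-family surface protein of T and NK cells (NCBI gene 12516, chromosome 11 from 121036747 to 121039478), gave the smallest p of the genes named by the rule. It had 626, 230.4, 732 and 529 CPM in Asxl1 KO 1 to 4 and 154, 191, 62.97 and 80.8 CPM in Dnmt3a KO 1 to 4. Every Asxl1 KO library lay above every Dnmt3a KO library, with Asxl1 KO 2 the lowest of its group and close to Dnmt3a KO 2. The group means were 529.7 ± 216 against 122 ± 60.5 CPM (SD, n = 4 each), and Cd7 was higher in Asxl1 KO (log2 fold change 2.00 ± 0.24 (SE), adjusted p = 9.46e-05). Rgs1, which shortens signalling by chemokine receptors by speeding GTP hydrolysis on G proteins (NCBI gene 50778, chromosome 1 from 144244669 to 144249104), had 241, 296, 437 and 556 CPM in Asxl1 KO and 87.1, 98.8, 167 and 152 CPM in Dnmt3a KO. The groups did not overlap, and the Dnmt3a KO libraries were also below all 5 Rosa KO libraries, which ran from 301 to 786 CPM. Rgs1 was higher in Asxl1 KO (log2 fold change 1.17 ± 0.19 (SE), adjusted p = 0.00451).

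Entpd1 encodes CD39, an ectoenzyme that degrades extracellular ATP and marks terminally exhausted CD8 T cells. Its CPM were 359.7, 195, 125.2 and 148 in Asxl1 KO and 147, 161, 98.8 and 116 in Dnmt3a KO. The raw values overlapped: Asxl1 KO 3 and 4, from the run without Dnmt3a KO libraries, lay within the Dnmt3a KO range, while Asxl1 KO 1 and 2 each lay above both Dnmt3a KO libraries of their own run. With the run term Entpd1 passed (log2 fold change 0.98 ± 0.17 (SE), adjusted p = 0.00509). Serpina3g, an intracellular inhibitor of cathepsins, had 509.8, 248, 362 and 433 CPM in Asxl1 KO and 146, 208, 164 and 152 CPM in Dnmt3a KO without overlap (log2 fold change 1.16 ± 0.20 (SE), adjusted p = 0.00714). Cd160, a lipid-anchored receptor of the ligand HVEM, passed too but lay outside the naming rule and was chosen after its values were seen. It had 64.8, 81.3, 178 and 135.73 CPM in Asxl1 KO and 38.3, 37.8, 34.0 and 30.0 CPM in Dnmt3a KO. The Dnmt3a KO libraries sat close together and all lay under the Asxl1 KO libraries, of which the 2 of run 3 were highest (log2 fold change 1.35 ± 0.27 (SE), adjusted p = 0.0266). Cxcr6, the receptor of CXCL16, had 518, 278, 493 and 553 CPM in Asxl1 KO and 286, 293, 200.4 and 252 CPM in Dnmt3a KO. Asxl1 KO 2 fell inside the Dnmt3a KO range and the other 3 lay above it (log2 fold change 0.93 ± 0.21 (SE), adjusted p = 0.0463). Reads of Cxcr6 could include some of the overlapping gene Fyco1, since strand use in counting is not given. Prdm1, which encodes the repressor Blimp-1, overlapped between groups, with 342, 165, 120.2 and 146 CPM against 161, 149, 110.2 and 114 CPM (log2 fold change 0.87 ± 0.19 (SE), adjusted p = 0.0463).

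These calls differed in how far they rested on single libraries. Serpina3g passed in 15 of 17 (adjusted p up to 0.0703, without Dnmt3a KO 1) of the fits leaving out 1 library, Entpd1 in 16 of 17 (adjusted p up to 0.0571, without Dnmt3a KO 1) and Cd160 in 10 of 17 (adjusted p up to 0.122, without Dnmt3a KO 1). Cxcr6 passed in 3 of 17 (adjusted p up to 0.254, without Dnmt3a KO 1) and Prdm1 in 3 of 17 (adjusted p up to 0.427, without Asxl1 KO 1), the smallest numbers in the list. Rgs1 and Cxcr6 are also the 2 of 11 tested tissue residency genes that passed, both as higher, beside 0.274% of all genes. Without Asxl1 KO 1, 6 of the 29 exhaustion members passed as higher, beside 16 of 14369 tested genes. Without Asxl1 KO 2, 9 passed as higher and 1 as lower, beside 156 and 80 of 14293. With only the 8 libraries of the 2 groups 2 passed as higher, beside 15 of 12726. With the mean B cell level as a covariate 4 did, beside 18 of 13881.

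The classical checkpoint receptors did not pass. Pdcd1, which encodes PD-1, had 257, 155, 216 and 247 CPM in Asxl1 KO and 164, 159, 109.7 and 115 CPM in Dnmt3a KO, with Asxl1 KO 2 inside the Dnmt3a KO range (log2 fold change 0.81 ± 0.21 (SE), adjusted p = 0.0989). Lag3 (log2 fold change 0.76 ± 0.22 (SE), adjusted p = 0.162), Havcr2, which encodes TIM-3 (log2 fold change 0.48 ± 0.21 (SE), adjusted p = 0.394), and the exhaustion transcription factor Tox (log2 fold change 0.57 ± 0.15 (SE), adjusted p = 0.116) had positive values as well. Tnfrsf9, the costimulatory receptor 4-1BB, had 181, 65.5, 101 and 114 CPM against 68.1, 101, 15.3 and 33.6 CPM, with Asxl1 KO 2 again inside the other group's range (log2 fold change 1.27 ± 0.32 (SE), adjusted p = 0.0980). With DESeq2, Pdcd1, Lag3, Tox and Tnfrsf9 did pass (adjusted p = 0.0189, 0.0326, 0.0326 and 0.0189), so their calls turned on the tool. Other members of the inhibitory receptor and exhaustion list, chosen after their values were seen, did not share this direction. Btla (-1.66 ± 0.62), Irf4 (-0.67 ± 0.28) and Bhlhe40 (-0.55 ± 0.18) had negative log2 fold changes (SE) that did not pass. Ctla4 stood at 0.0075 ± 0.31 and Tigit at 0.25 ± 0.33 (SE). Of the list's 29 members, 13 were higher and 3 lower at an unadjusted p under 0.05. None of the 11 tested costimulatory receptors passed with edgeR. At an unadjusted p under 0.05, 3 were higher and none lower, and DESeq2 called 2 higher.

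**Figure D2:**
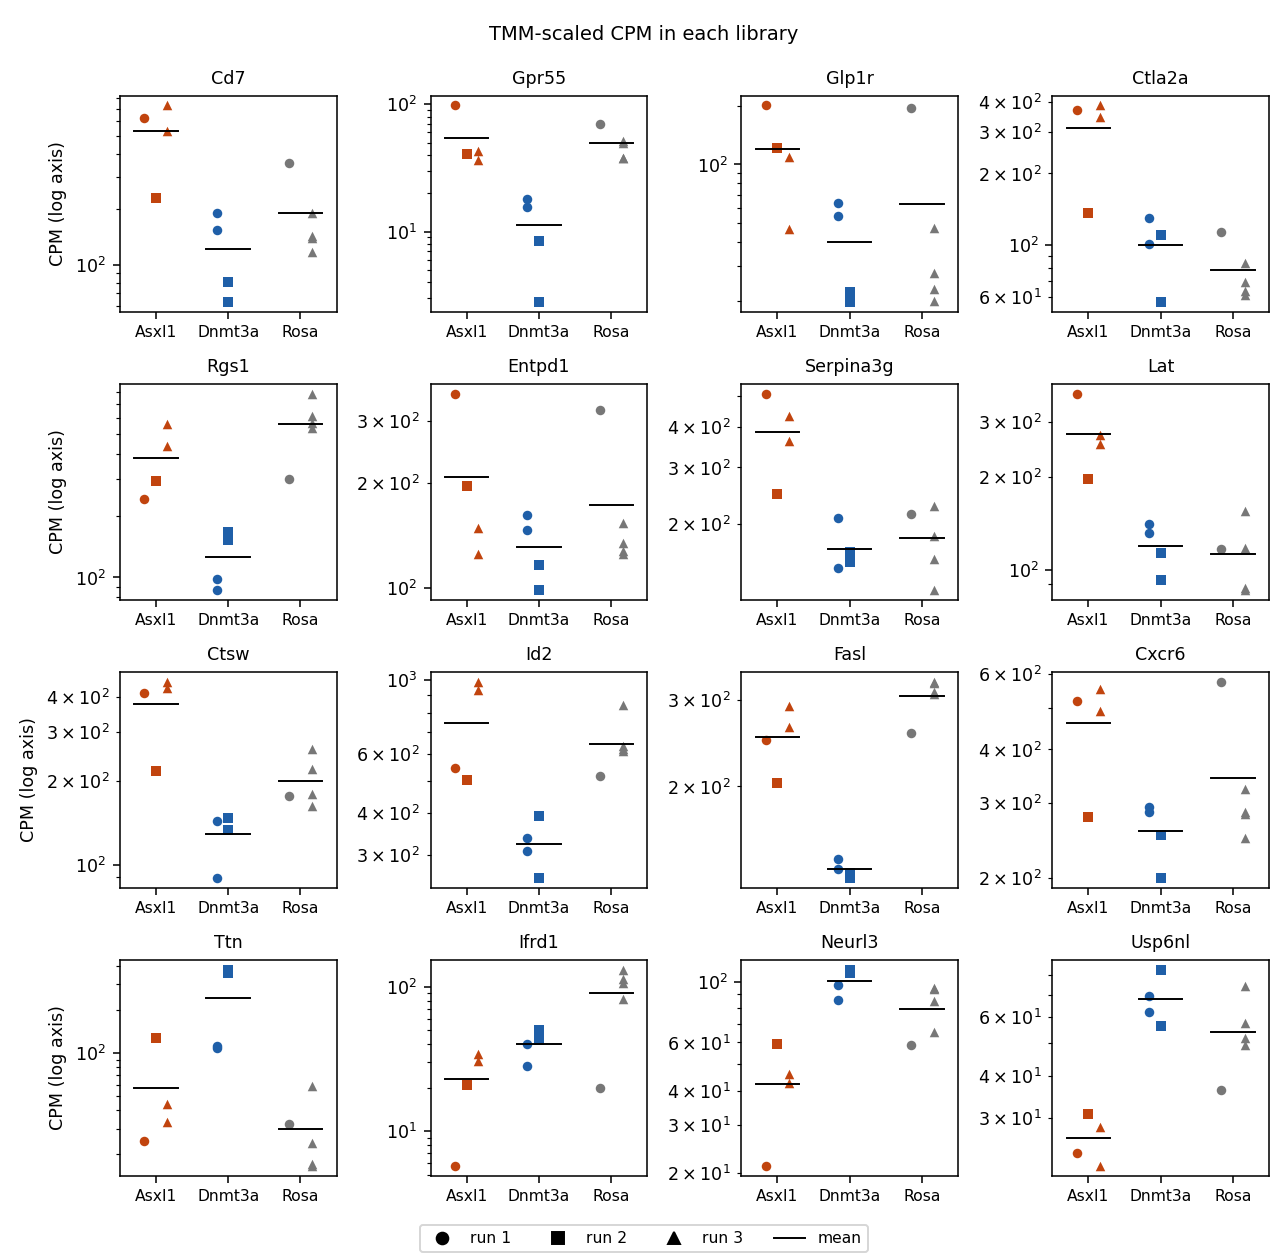
Each panel shows 1 gene's TMM-scaled CPM (log axis) in the 4 Asxl1 KO, 4 Dnmt3a KO and 5 Rosa KO libraries, with the run as the symbol and the group mean as a bar. Cd7, Rgs1, Lat, Ctsw, Id2 and Fasl separate the knockouts completely, while for Entpd1 and Cxcr6 at least 1 Asxl1 KO library lies in the Dnmt3a KO range, and Ttn, Ifrd1, Neurl3 and Usp6nl run in the other direction.

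Some genes of cytotoxic function also passed. Effector CD8 T cells kill through granzymes and perforin released from granules and through Fas ligand on the surface. Of 35 tested effector and cytotoxic genes, 4 passed as higher in Asxl1 KO and none as lower, beside 0.274% of all genes (median log2 fold change 0.30). They were Ctsw, Id2, Fasl and Prdm1, the last described above. Ctsw, a papain-family cathepsin of cytotoxic lymphocytes (NCBI gene 13041, chromosome 19 from 5465043 to 5468628), had 414, 217, 431 and 455 CPM in Asxl1 KO and 89.7, 143, 133 and 148 CPM in Dnmt3a KO. The groups did not overlap, although Asxl1 KO 2 lay far below the other Asxl1 KO libraries (log2 fold change 1.36 ± 0.22 (SE), adjusted p = 0.00392). Ctsw overlaps Fibp in the annotation, so some of its reads may belong to that gene. Id2, which blocks E proteins and favours effector cells (NCBI gene 15902, chromosome 12 from 25093799 to 25096092), had 545, 501, 933 and 991 CPM in Asxl1 KO and 335, 307, 255 and 391 CPM in Dnmt3a KO, again without overlap. The 2 run 3 libraries of Asxl1 KO were the highest (log2 fold change 0.89 ± 0.17 (SE), adjusted p = 0.0187). Fasl, the ligand of the death receptor Fas (NCBI gene 14103, chromosome 1 from 161780691 to 161788495), had 249, 203, 265 and 291 CPM in Asxl1 KO and 135.96, 143, 130.2 and 133 CPM in Dnmt3a KO. The Dnmt3a KO libraries sat close together, below every Asxl1 KO library and below the Rosa KO range of 257 to 327 CPM (log2 fold change 0.88 ± 0.18 (SE), adjusted p = 0.0340). Id2 passed in 14 of 17 (adjusted p up to 0.0988, without Dnmt3a KO 2) of the fits leaving out 1 library and Fasl in 6 of 17 (adjusted p up to 0.130, without Dnmt3a KO 1).

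The granzymes and the short-lived effector markers did not pass. Gzmb had 1153, 710.1, 1185 and 1013 CPM in Asxl1 KO and 888, 861, 587 and 723 CPM in Dnmt3a KO, with overlapping groups (log2 fold change 0.25 ± 0.14 (SE), adjusted p = 0.530). For Gzma the values pointed the other way: 749, 561, 588 and 671 CPM against 1283, 1408, 651 and 1026 CPM, with Dnmt3a KO 3 inside the Asxl1 KO range (log2 fold change -0.62 ± 0.18 (SE), adjusted p = 0.172), and Gzma overlaps Cdc20b. Zeb2, a transcription factor of terminal effector cells, overlapped between groups as well (log2 fold change -0.58 ± 0.21 (SE), adjusted p = 0.295). Klrg1 (log2 fold change 0.09 ± 0.29 (SE), adjusted p = 0.940), Cx3cr1 (log2 fold change -0.04 ± 0.27 (SE), adjusted p = 0.968) and Ifng (log2 fold change 0.26 ± 0.29 (SE), adjusted p = 0.784) had values near 0 relative to their errors. The cystatin Cst7, the granule gene Nkg7 and the granzyme Gzmk had log2 fold changes of 0.77 ± 0.18, 0.66 ± 0.19 and 0.69 ± 0.19 (SE) with adjusted p of 0.0585, 0.171 and 0.154. DESeq2 called 7 of the 35 effector genes as higher and none as lower, beside 140 and 80 of all 13881 genes. Without Asxl1 KO 1, 2 passed as higher, beside 16 of 14369 tested genes, and the list median was 0.14. Without Asxl1 KO 2, 8 passed as higher, beside 156 of 14293, and the list median was 0.55. With only the 8 libraries of the 2 groups none passed, and with the B cell covariate 1 did.

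In the list of the CD3 complex and proximal signalling, Lat passed. LAT is the membrane adaptor that ZAP-70 phosphorylates to assemble the signalling complex downstream of the receptor. Lat (NCBI gene 16797, chromosome 7 from 126363827 to 126369705) had 370.4, 197, 273 and 256 CPM in Asxl1 KO and 141, 131.3, 92.7 and 113 CPM in Dnmt3a KO. All Asxl1 KO libraries lay above the Dnmt3a KO libraries and above the Rosa KO range of 86.5 to 155 CPM (log2 fold change 1.14 ± 0.19 (SE), adjusted p = 0.00509). It was the only one of the list's 18 tested members to pass, beside 0.274% of all genes. DESeq2 called 2, beside 140 higher of 13881 genes. Without Asxl1 KO 2, 7 passed, beside 156 higher of 14293, and none passed without Asxl1 KO 1. Lat passed in 16 of 17 (adjusted p up to 0.0509, without Asxl1 KO 1) of the fits leaving out 1 library. The CD3 chains had positive values that did not pass, with log2 fold changes of 0.67 ± 0.18 for Cd3g, 0.53 ± 0.18 for Cd3d and 0.51 ± 0.15 for Cd3e (SE). Sh2d2a encodes TSAd, an SH2-domain adaptor that binds the kinase LCK. It was outside the naming rule and was chosen after its values were seen. It had 1258, 575, 544 and 558 CPM in Asxl1 KO and 313, 369, 343 and 304 CPM in Dnmt3a KO, with no overlap and with Asxl1 KO 1 highest by a wide margin (log2 fold change 1.38 ± 0.17 (SE), adjusted p = 9.46e-05).

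The genes named for the size of their change include 3 receptors of the G protein-coupled class. Gpr55, a receptor for lysophosphatidylinositol (NCBI gene 227326, chromosome 1 from 85933221 to 85991583), had 97.8, 40.6, 36.4 and 43.2 CPM in Asxl1 KO and 17.98, 15.5, 2.81 and 8.37 CPM in Dnmt3a KO. Every Dnmt3a KO library lay below every Asxl1 KO library, and the Rosa KO libraries, at 37.6 to 70.3 CPM, lay with Asxl1 KO (log2 fold change 2.49 ± 0.38 (SE), adjusted p = 0.00303). Glp1r, the receptor of the gut hormone GLP-1 (NCBI gene 14652, chromosome 17 from 30901867 to 30936510), had 201, 121, 46.5 and 109 CPM in Asxl1 KO and 54.1, 63.3, 22.1 and 19.8 CPM in Dnmt3a KO. Asxl1 KO 3 lay within the Dnmt3a KO range, and the other 3 lay above all of them (log2 fold change 2.27 ± 0.44 (SE), adjusted p = 0.0266). Adgrg1, the adhesion receptor GPR56 of cytotoxic lymphocytes, had 182, 77.2, 108 and 149 CPM against 46.1, 76.9, 51.8 and 42.6 CPM. The margin between the lowest Asxl1 KO and the highest Dnmt3a KO library was under 1 CPM (log2 fold change 1.46 ± 0.33 (SE), adjusted p = 0.04996). Glp1r passed in 10 of 17 (adjusted p up to 0.148, without Dnmt3a KO 1) and Adgrg1 in 2 of 17 (adjusted p up to 0.343, without Dnmt3a KO 1) of the fits leaving out 1 library. Ccr2, an inflammatory chemokine receptor chosen after its values were seen, passed as well. Its groups overlapped (log2 fold change 0.76 ± 0.17 (SE), adjusted p = 0.04996), and it passed in 4 of 17 (adjusted p up to 0.188, without Dnmt3a KO 3) of those fits.

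Among the other higher genes, Ctla2a encodes an inhibitor of cysteine cathepsins that resembles a cathepsin propeptide (NCBI gene 13024, chromosome 13 from 60934155 to 60936625). It had 371, 136.01, 388 and 346 CPM in Asxl1 KO and 100.4, 129, 57.4 and 110.3 CPM in Dnmt3a KO, so that even the lowest library, Asxl1 KO 2, lay just above the highest Dnmt3a KO library (log2 fold change 1.49 ± 0.25 (SE), adjusted p = 0.00451). Ctla2a has a close paralog, Ctla2b, and its reads could have been split between them. The lipocalin Lcn4 had 51.5, 12.7, 31.1 and 14.6 CPM against 1.90, 3.35, 3.10 and 4.65 CPM (log2 fold change 2.68 ± 0.57 (SE), adjusted p = 0.0377), the largest positive value among the genes that passed. The septin Sept4 had 55.6, 21.4, 34.5 and 38.6 CPM against 7.07, 5.54, 6.24 and 5.94 CPM (log2 fold change 2.54 ± 0.46 (SE), adjusted p = 0.00982). Both were low transcripts in Dnmt3a KO and did not overlap between groups. H1f0, the replication-independent linker histone, had 95.0, 57.9, 62.4 and 56.0 CPM against 16.3, 22.2, 18.3 and 22.1 CPM (log2 fold change 1.71 ± 0.32 (SE), adjusted p = 0.0156). Kremen2, a co-receptor of the Wnt antagonist Dickkopf (log2 fold change 2.01 ± 0.41 (SE), adjusted p = 0.0266), Camk2n1, an inhibitor of CaM kinase II (log2 fold change 1.75 ± 0.36 (SE), adjusted p = 0.0317), Atp8a2, a phospholipid flippase (log2 fold change 2.14 ± 0.38 (SE), adjusted p = 0.00793), and Clgn, a chaperone known from the testis (log2 fold change 1.68 ± 0.37 (SE), adjusted p = 0.0451), were also without overlap. In the fits leaving out 1 library, Atp8a2 passed in 16 of 17 (adjusted p up to 0.0703, without Dnmt3a KO 1), Sept4 in 14 of 17 (adjusted p up to 0.0884, without Dnmt3a KO 2), H1f0 in 13 of 17 (adjusted p up to 0.315, without Asxl1 KO 1), Kremen2 in 12 of 17 (adjusted p up to 0.440, without Asxl1 KO 1), Camk2n1 in 8 of 17 (adjusted p up to 0.231, without Asxl1 KO 1), Lcn4 in 8 of 17 (adjusted p up to 0.441, without Asxl1 KO 1) and Clgn in 5 of 17 (adjusted p up to 0.257, without Dnmt3a KO 2).

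The 11 genes lower in Asxl1 KO formed no list of their own, and 10 of them were named by the rule. Ttn, the giant sarcomere protein of striated muscle, whose transcript is also found in lymphocytes (NCBI gene 22138, chromosome 2 from 76703980 to 76982557), had 24.7, 128, 44.7 and 33.3 CPM in Asxl1 KO and 109, 112, 358 and 378 CPM in Dnmt3a KO. The Dnmt3a KO libraries of run 2 were the highest and Asxl1 KO 2, from the same run, lay above the Dnmt3a KO libraries of run 1, so that the groups overlapped across runs and not within them (log2 fold change -1.74 ± 0.34 (SE), adjusted p = 0.0287). The Rosa KO libraries had 16.5 to 59.5 CPM. Ifrd1, a transcriptional co-regulator induced by growth signals (NCBI gene 15982, chromosome 12 from 40203129 to 40223189), had 5.74, 20.7, 30.7 and 34.3 CPM in Asxl1 KO and 40.1, 28.2, 50.1 and 42.8 CPM in Dnmt3a KO. Asxl1 KO 1 was lowest, and the 2 run 3 libraries of Asxl1 KO overlapped Dnmt3a KO 2 (log2 fold change -1.81 ± 0.30 (SE), adjusted p = 0.00451). The 4 Rosa KO libraries of run 3 all lay far above these 2. Ttn passed in 10 of 17 (adjusted p up to 0.427, without Asxl1 KO 1) of the fits leaving out 1 library.

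Neurl3, a ubiquitin ligase of the neuralized family (NCBI gene 214854, chromosome 1 from 36264602 to 36274674), had 21.3, 59.2, 46.2 and 42.7 CPM in Asxl1 KO and 97.0, 85.8, 108 and 111 CPM in Dnmt3a KO, with no overlap (log2 fold change -1.46 ± 0.25 (SE), adjusted p = 0.00509). Usp6nl, a GTPase-activating protein of Rab5 (NCBI gene 98910, chromosome 2 from 6322757 to 6448296), had 23.6, 30.7, 28.1 and 21.5 CPM against 69.3, 62.2, 83.1 and 56.5 CPM. Its lowest Dnmt3a KO library was clear of its highest Asxl1 KO library (log2 fold change -1.45 ± 0.27 (SE), adjusted p = 0.0134). The cytoskeletal genes Ssh2, a phosphatase that activates cofilin (log2 fold change -0.73 ± 0.15 (SE), adjusted p = 0.0383), and Add3, an adducin that caps actin (log2 fold change -0.65 ± 0.15 (SE), adjusted p = 0.04996), were lower by less but also without overlap. Add3 had 211, 221, 222 and 199 CPM in Asxl1 KO and 363, 368, 306 and 311 CPM in Dnmt3a KO. The lipid enzymes Scd2, a stearoyl-CoA desaturase (log2 fold change -1.14 ± 0.25 (SE), adjusted p = 0.0418), and Gpcpd1, a glycerophosphocholine phosphodiesterase (log2 fold change -0.97 ± 0.19 (SE), adjusted p = 0.0183), passed, the first without overlap. So did Slc9a7, a sodium-proton exchanger of the Golgi (log2 fold change -1.73 ± 0.35 (SE), adjusted p = 0.0266), whose groups were separate. Slc9a7 overlaps Chst7 and Ssh2 overlaps Efcab5 in the annotation.

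Rapgef4, a cAMP-activated exchange factor for Rap GTPases, had the largest value of all passing genes (log2 fold change -4.11 ± 0.93 (SE), adjusted p = 0.04996) at a low level. It had 0.0617, 7.05, 0.813 and 2.41 CPM in Asxl1 KO and 10.1, 5.25, 25.0 and 16.3 CPM in Dnmt3a KO. The transcript was close to 0 in Asxl1 KO 1, and Asxl1 KO 2 lay above Dnmt3a KO 2. Rapgef4 passed in 2 of 17 (adjusted p up to 0.314, without Asxl1 KO 1) of the fits leaving out 1 library and Add3 in 2 of 17 (adjusted p up to 0.280, without Asxl1 KO 1). Neurl3 passed in 16 of 17 (adjusted p up to 0.0509, without Asxl1 KO 1), Usp6nl in 15 of 17 (adjusted p up to 0.0703, without Dnmt3a KO 1), Gpcpd1 in 14 of 17 (adjusted p up to 0.125, without Asxl1 KO 1), Slc9a7 in 12 of 17 (adjusted p up to 0.236, without Asxl1 KO 1), Scd2 in 6 of 17 (adjusted p up to 0.314, without Asxl1 KO 1) and Ssh2 in 5 of 17 (adjusted p up to 0.156, without Dnmt3a KO 1).

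Because Dnmt3a acts on CpG cytosines, the promoter windows of 3 genes are printed to show how many CpG sites they hold. The genes were chosen after their values were seen: Ttn passed in Dnmt3a KO against Rosa KO, and Lat and Ifrd1 passed in Asxl1 KO against Rosa KO. The windows come from RefSeq (GRCm38.p6), run from 250 bases before to 50 bases after the transcript start that its promoter table uses, and are written 5′ to 3′ on the minus strand with CG in capitals. No methylation was measured, so a CG is a description of the sequence. For Lat and Ttn that start lies slightly inside the span of the gene given above.
Lat, chr7:126369519-126369818: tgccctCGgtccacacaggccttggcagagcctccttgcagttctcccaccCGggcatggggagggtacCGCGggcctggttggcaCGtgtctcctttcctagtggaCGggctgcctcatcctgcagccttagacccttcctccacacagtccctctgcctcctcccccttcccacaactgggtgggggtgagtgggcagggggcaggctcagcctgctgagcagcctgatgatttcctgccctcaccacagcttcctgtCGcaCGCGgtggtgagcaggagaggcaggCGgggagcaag
Ttn, chr2:76982498-76982797: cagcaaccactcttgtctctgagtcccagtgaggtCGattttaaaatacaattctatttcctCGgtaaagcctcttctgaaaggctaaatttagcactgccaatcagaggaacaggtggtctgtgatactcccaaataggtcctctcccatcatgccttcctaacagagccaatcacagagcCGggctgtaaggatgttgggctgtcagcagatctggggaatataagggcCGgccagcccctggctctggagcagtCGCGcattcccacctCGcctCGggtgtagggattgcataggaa
Ifrd1, chr12:40223140-40223439: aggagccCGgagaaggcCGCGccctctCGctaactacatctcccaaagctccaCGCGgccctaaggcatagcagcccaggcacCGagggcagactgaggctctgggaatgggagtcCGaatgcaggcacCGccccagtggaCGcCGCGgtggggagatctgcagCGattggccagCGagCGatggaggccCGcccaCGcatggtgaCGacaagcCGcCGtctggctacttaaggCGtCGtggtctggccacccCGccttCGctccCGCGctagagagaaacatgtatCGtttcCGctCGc

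The Lat window holds 10 CG, a number reached by 43.9% of the 27025 RefSeq promoter windows, and the Ttn window 8 (49.0%). Ifrd1 has a CpG-rich window with 29 CG, which 12.7% of windows reach. These shares are over all RefSeq windows, whose median is 7 CG, and not over the genes tested here. Among the 79.0% of tested genes that have a window the median is 20 CG, above the numbers of Lat and Ttn. No comparison of CpG content between the higher and lower genes is given, because too few genes have a window: 76.3% of the higher, 72.7% of the lower and 79.0% of all tested genes.

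The stem-like program, which the series title names, held no gene that passed between the 2 knockouts in the model over 17 libraries. Of 27 tested stem-like and progenitor genes none passed with edgeR over all libraries, 3 were higher and 2 lower at an unadjusted p under 0.05, and DESeq2 called 1 as higher. Without Asxl1 KO 2, 3 passed as higher, beside 156 of 14293 tested genes. The list's median log2 fold change was -0.21, against -0.44 without Asxl1 KO 1, -0.10 without Asxl1 KO 2 and -0.03 with the 8 libraries. Tcf7, which encodes the transcription factor TCF-1 that maintains the stem-like fraction, had 383, 79.4, 99.2 and 67.6 CPM in Asxl1 KO and 181, 206, 129 and 141 CPM in Dnmt3a KO. Asxl1 KO 1 was the highest of all 8 libraries and the other 3 Asxl1 KO libraries were below every Dnmt3a KO library (log2 fold change 0.15 ± 0.29 (SE), adjusted p = 0.891). Within run 1 the difference was 0.98, within run 2 it was -0.76, and the fitted value turned negative without Asxl1 KO 1 (-0.085), without Dnmt3a KO 1 (-0.094), without Dnmt3a KO 2 (-0.030), without the run term (-0.064) and with the B cell covariate (-0.11). Against Rosa KO, Tcf7 passed as higher in both knockouts. Its log2 fold changes against Rosa KO were 1.94 ± 0.26 in Asxl1 KO (adjusted p = 8.63e-05) and 1.79 ± 0.31 in Dnmt3a KO (0.00510). Rosa KO ranged from 14.2 to 102 CPM, and Asxl1 KO 1 and all Dnmt3a KO libraries lay above its upper end, which was Rosa KO 1 of run 1. The Rosa KO libraries of run 3 had 14.2 to 24.6 CPM, below Asxl1 KO 3 and 4 of that run. Tcf7 overlaps Skp1. Between the 2 knockouts, Slamf6 (log2 fold change -0.10 ± 0.24 (SE), adjusted p = 0.918) and Il7r (log2 fold change 0.38 ± 0.41 (SE), adjusted p = 0.786) did not pass either. Bach2, a repressor that restrains effector differentiation, stood at -1.45 ± 0.45 (SE, adjusted p = 0.253). Lef1, the partner of TCF-1, stood at -0.44 ± 0.30 (SE, adjusted p = 0.610). On the other side, Ltb stood at 1.06 ± 0.40, Cxcr3 at 0.67 ± 0.19 and Eomes at 0.58 ± 0.22 (SE). Their adjusted p were 0.315, 0.164 and 0.315. Bach2, Lef1, Ltb, Cxcr3 and Eomes lay outside the naming rule and were chosen after their values were seen. Of the list's 27 tested members, 10 had positive log2 fold changes.

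The machinery to which the targeted genes belong also held no gene that passed. For 19 tested genes of DNA methylation the median log2 fold change was 0.07, with 1 higher and none lower at an unadjusted p under 0.05 and none with DESeq2. That gene was Tet2, which oxidises 5-methylcytosine (log2 fold change 0.50 ± 0.23 (SE), adjusted p = 0.430). For 38 tested genes of the Polycomb complexes and their deubiquitinase the median was 0.07, with 1 higher and 3 lower at an unadjusted p under 0.05 and none with DESeq2. Bap1 itself had a log2 fold change of 0.43 ± 0.33 and the methyltransferase Ezh2 of -0.07 ± 0.21 (SE). Imprinted genes, whose silent alleles carry DNA methylation, had a median of 0.40 over 14 tested members, 11 of them above 0. None passed, and 2 were higher at an unadjusted p under 0.05 and none with DESeq2. Of 25 germline genes known to be kept silent by promoter methylation and of 37 Hox genes, 3 of each reached the filter on low counts, and none passed (1 germline gene higher and 1 Hox-list gene lower at an unadjusted p under 0.05, none with DESeq2).

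**Figure D3:**
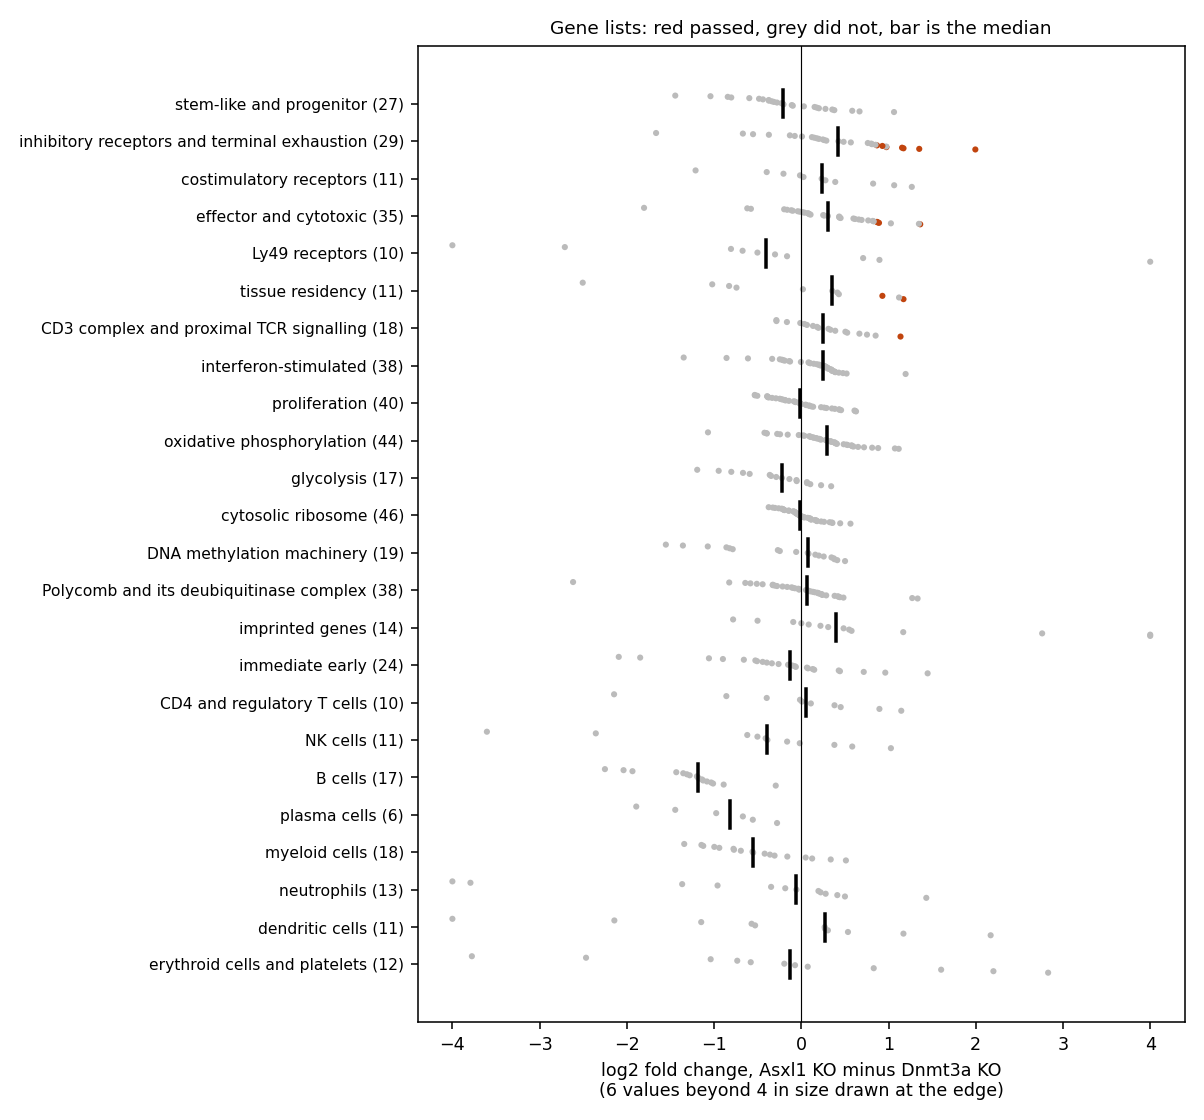
Each point is 1 tested gene of a list, placed by its log2 fold change, Asxl1 KO minus Dnmt3a KO, with the number tested in brackets and the median as a bar. The genes that passed (red) lie in 4 lists, all on the right, and all 17 B cell and all 6 plasma cell genes lie on the left.

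Metabolic, interferon and proliferation lists held no gene that passed in the model over 17 libraries. Subunits of oxidative phosphorylation had a median of 0.29, with 36 of 44 above 0, 8 higher at an unadjusted p under 0.05 and none passing with edgeR or DESeq2. Their within-run values differed: Cox8a, a subunit of cytochrome c oxidase, stood at 1.33 within run 1 and 0.08 within run 2. Glycolysis genes had a median of -0.22 over 17 members, with 3 lower at an unadjusted p under 0.05, and cytosolic ribosomal proteins -0.02 over 46. Proliferation genes had a median of -0.02 over 40 members with none past an unadjusted p of 0.05. Interferon-stimulated genes had 0.24 over 38 members, with 1 higher and 2 lower. Immediate early genes had -0.13 over 24 members, with 1 higher and 2 lower, and DESeq2 called 1 as lower. Without Asxl1 KO 2, edgeR called 1 interferon-stimulated gene and 2 proliferation genes as lower and 1 immediate early gene as higher. Over all 14293 genes of that fit it called 80 as lower and 156 as higher. Several medians depended on a library or on the run term. Without Asxl1 KO 2 the proliferation median was -0.58, without Asxl1 KO 1 it was 0.22, and with no run term the ribosomal median was 0.43. The median of oxidative phosphorylation was 0.083 without Asxl1 KO 1 and 0.59 with no run term, and that of immediate early genes was -0.57 without Asxl1 KO 1 and 0.20 without Asxl1 KO 2.

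Setting each knockout against Rosa KO showed which knockout passed against the control. Both comparisons use the same 5 Rosa KO libraries, so they are given side by side. Asxl1 KO differed from Rosa KO in 1.64% of tested genes and Dnmt3a KO in 0.216%. Of the 38 genes higher in Asxl1 KO than in Dnmt3a KO, 13 passed in Asxl1 KO against Rosa KO alone, 4 in Dnmt3a KO against Rosa KO alone, and 21 in neither. Of the 11 lower genes, 6 passed in Asxl1 KO alone, 1 in Dnmt3a KO alone and 4 in neither. The 4 were Gpr55, Rgs1, Entpd1 and Fasl, and the 1 was Ttn. For Gpr55 the log2 fold changes against Rosa KO were 0.14 ± 0.35 in Asxl1 KO (adjusted p = 0.899) and -2.35 ± 0.41 in Dnmt3a KO (0.00582). For Rgs1 they were -0.38 ± 0.17 in Asxl1 KO (adjusted p = 0.285) and -1.55 ± 0.20 in Dnmt3a KO (4.21e-04). For Fasl they were -0.27 ± 0.16 in Asxl1 KO (adjusted p = 0.439) and -1.15 ± 0.20 in Dnmt3a KO (0.00510). For these genes Dnmt3a KO was lower than Rosa KO and Asxl1 KO did not pass. For Ttn the values were 0.30 ± 0.30 in Asxl1 KO (adjusted p = 0.703) and 2.04 ± 0.36 in Dnmt3a KO (0.00881). A single Rosa KO library was in a run with Dnmt3a KO libraries, which limits that comparison.

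The opposite arrangement was seen for Cd7, Ctla2a, Lat and Ctsw. Against Rosa KO, Cd7 had 1.71 ± 0.21 in Asxl1 KO (adjusted p = 3.26e-05) and -0.29 ± 0.24 in Dnmt3a KO (0.827). Ctla2a had 2.06 ± 0.21 in Asxl1 KO (adjusted p = 3.45e-06) and 0.57 ± 0.25 in Dnmt3a KO (0.566). Lat had 1.33 ± 0.18 in Asxl1 KO (adjusted p = 8.63e-05) and 0.19 ± 0.21 in Dnmt3a KO (0.884). For these genes Asxl1 KO was higher than Rosa KO and Dnmt3a KO did not pass. Among the lower genes Ifrd1 had -1.70 ± 0.27 in Asxl1 KO (adjusted p = 6.77e-04) and 0.10 ± 0.31 in Dnmt3a KO (0.969), and Slc9a7 had -1.76 ± 0.31 in Asxl1 KO (adjusted p = 0.00267) and -0.03 ± 0.36 in Dnmt3a KO (0.991). For Lcn4, Sept4, Glp1r, Atp8a2, H1f0 and Adgrg1 the estimates lay on opposite sides of Rosa KO, and none of them passed on either side.

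**Figure D4:**
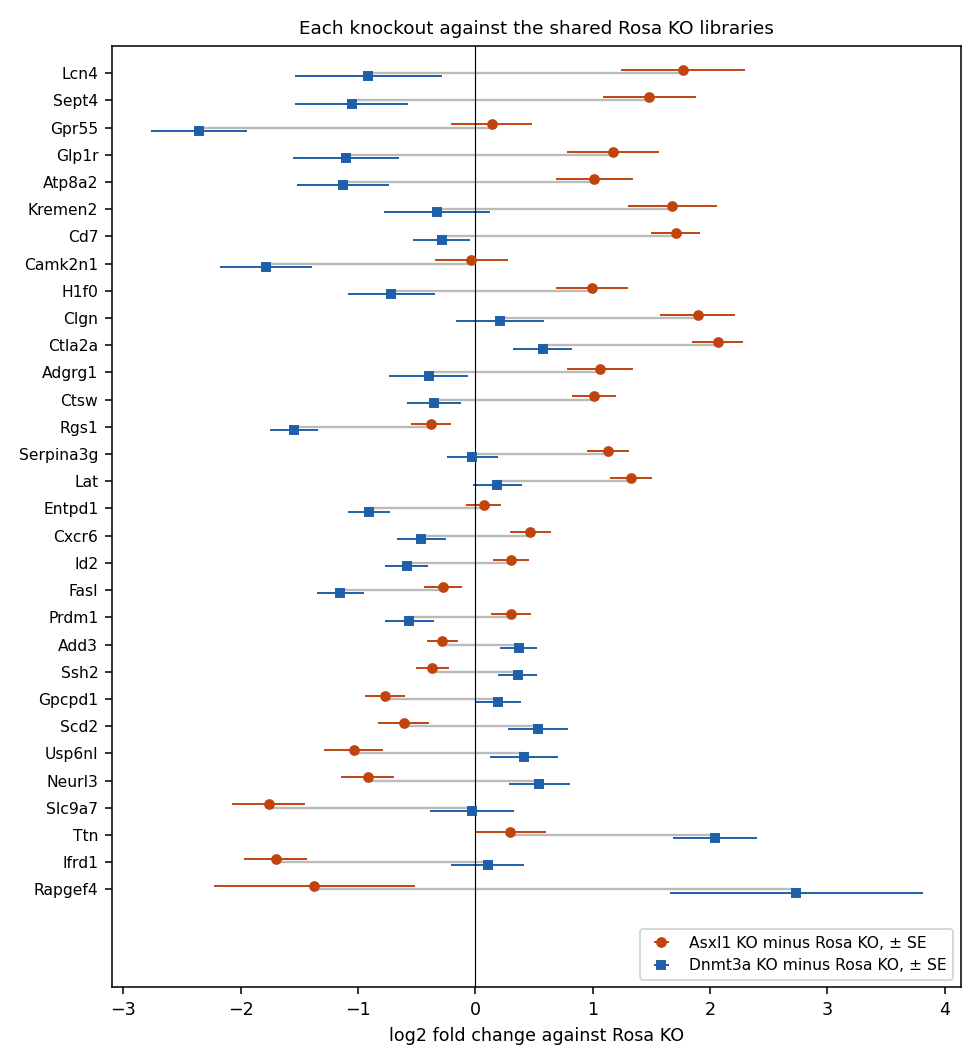
For the 31 passing genes named by the rule, the log2 fold change against Rosa KO is shown for Asxl1 KO (circles) and Dnmt3a KO (squares), with bars of ±1 SE, and a grey line spans the distance between them. Gpr55, Rgs1, Fasl and Ttn have the circle nearer to 0 than the square, and Cd7, Lat, Ctla2a and Ifrd1 have the reverse.

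The runs that hold both knockouts were also examined separately, since Asxl1 KO 3 and 4 have no Dnmt3a KO library in their run. All 49 genes had the same direction within run 1 and within run 2, each a comparison of 1 Asxl1 KO with 2 Dnmt3a KO libraries. The model that chose these genes draws on the same differences, so their shared sign is a description. Cd7 differed by 1.87 within run 1 and 1.69 within run 2. Gpr55 differed by 2.54 within run 1 and 3.04 within run 2 and Rgs1 by 1.38 within run 1 and 0.90 within run 2. Run 2 gave smaller values for many genes: Ctsw differed by 1.87 within run 1 and 0.63 within run 2, Serpina3g by 1.55 within run 1 and 0.65 within run 2 and Sh2d2a by 1.89 within run 1 and 0.83 within run 2. Among the lower genes Ttn differed by -2.15 within run 1 and -1.52 within run 2, Ifrd1 by -2.53 within run 1 and -1.16 within run 2 and Usp6nl by -1.48 within run 1 and -1.16 within run 2. Restricting the model to the 6 libraries of these runs left 4 higher and 2 lower genes, of which Cd7, Glp1r and Ttn were among the 49. Leaving out the run term left 6 higher and no lower gene: Cd160, Ctla2a, Ctsw, H1f0, Lcn4 and Sept4 (893 higher and 476 lower at an unadjusted p under 0.05).

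**Figure D5:**
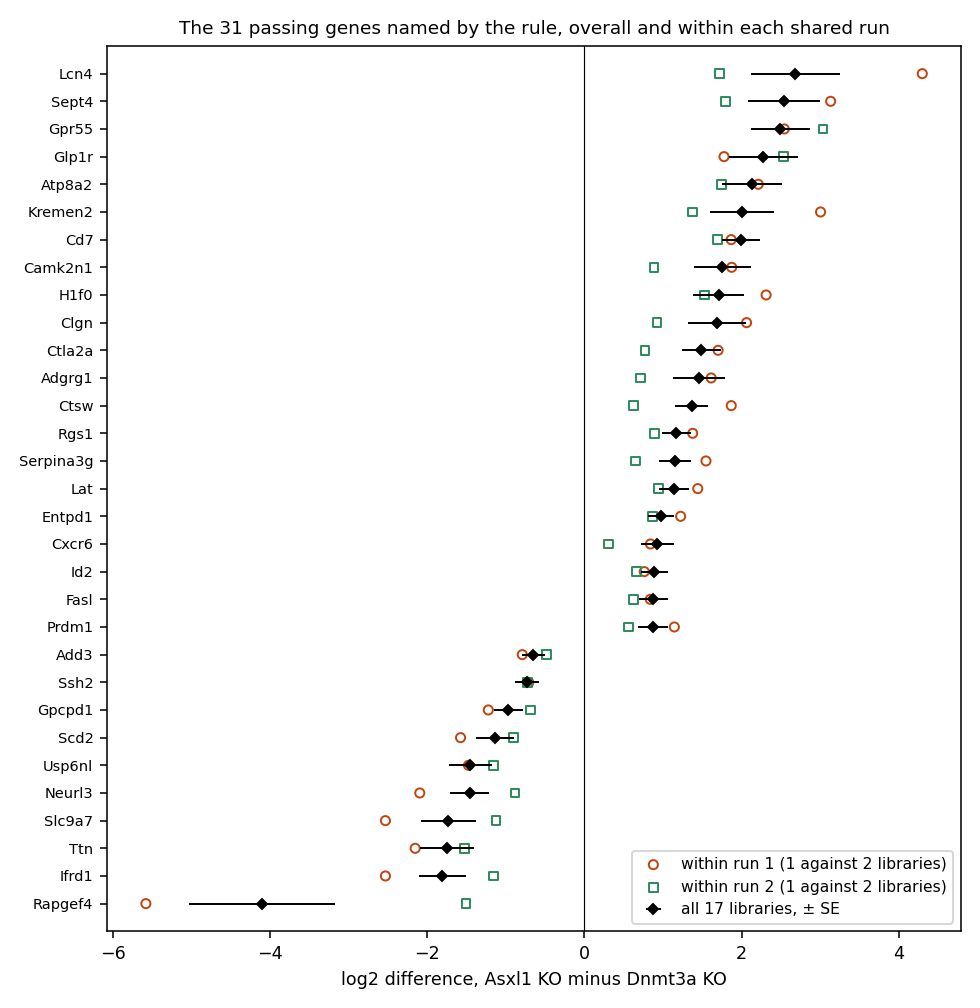
The 31 passing genes named by the rule are shown with their fitted log2 fold change over all 17 libraries (diamonds, bars of ±1 SE) and the log2 difference within run 1 (circles) and run 2 (squares). Every circle and square lies on the same side of 0 as its diamond, and the run 2 values are nearer to 0 than the run 1 values for most genes.

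Transcripts of other cell types were present in both groups, and in bulk RNA fewer cells of a type and less RNA per cell cannot be told apart. The CD4 co-receptor gene Cd4, a marker of the helper lineage that CD8 T cells silence, was the clearest case, named as a marker and singled out after its values were seen. It had 13.3, 4.41, 19.2 and 6.75 CPM in Asxl1 KO 1 to 4 and 72.2, 99.5, 54.2 and 52.8 CPM in Dnmt3a KO 1 to 4. All Dnmt3a KO libraries lay above every other library of the series: Rosa KO reached 28.1 CPM and Tet2 KO 13.9 CPM. In the model over 17 libraries Cd4 did not pass (log2 fold change -2.15 ± 1.02 (SE), adjusted p = 0.465). With only the 8 libraries it passed as lower in Asxl1 KO (-3.12 ± 0.49, adjusted p = 0.0361), as it did with the 6 libraries of runs 1 and 2 (-3.12 ± 0.40, adjusted p = 0.0224). Without the low-count filter it passed too (-2.15 ± 0.48, adjusted p = 0.00139), and with the stricter filter it did not (0.444). Its log2 fold change was -2.70 within run 1 alone and -3.585 within run 2 alone. Cd4 did not pass with runs 1 and 2 of all groups (adjusted p = 0.664), the replicate block (0.467), no run term (0.361), the B cell covariate (0.648) or DESeq2 (0.252). Of the other 9 genes of the CD4 and regulatory T cell list 3 had negative and 6 positive log2 fold changes, from -0.86 to 1.15. Zbtb7b, which encodes the helper lineage factor ThPOK, had 10.7, 18.2, 22.2 and 29.5 CPM in Asxl1 KO and 11.4, 9.76, 27.8 and 12.6 CPM in Dnmt3a KO, with overlap. Foxp3, the regulatory T cell factor, had 26.2, 2.80, 0.226 and 2.36 CPM and 6.65, 1.12, 6.03 and 6.84 CPM. Over the whole list of 10 CD4 and regulatory T cell genes, the summed level was 113 to 249 CPM in Asxl1 KO and 167 to 207 CPM in Dnmt3a KO, and none passed in the model over 17 libraries (1 higher at an unadjusted p under 0.05, none with DESeq2). The part of helper cells in the Cd4 values was not tested.

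B cell transcripts spanned a wide range within Dnmt3a KO. The 17 tested B cell genes had negative log2 fold changes without exception (median -1.19), none passed, 1 was lower at an unadjusted p under 0.05 and none with DESeq2. Their summed level was 1704 to 2765 CPM in Asxl1 KO, 1759 to 5120 CPM in Dnmt3a KO and 1571 to 6890 CPM in Rosa KO. With the mean B cell level as a covariate, 18 genes were higher and 2 lower in Asxl1 KO, and 17 of them belonged to the 49, among them Cd7, Rgs1, Gpr55, Lat, Ctsw and Ttn. Plasma cell genes summed to 287 to 419 CPM in Asxl1 KO and 232 to 708 CPM in Dnmt3a KO, and myeloid genes to 783 to 1128 CPM and 859 to 1814 CPM. NK cell genes, several of which CD8 T cells also express, summed to 887 to 1458 CPM and 928 to 1910 CPM. The NK receptor gene Ncr1 was low in both groups, with 0 to 1.45 CPM in Asxl1 KO and 1.06 to 10.6 CPM in Dnmt3a KO. Klrb1c pointed the other way, with 17.7 to 39.5 CPM in Asxl1 KO and 5.59 to 28.4 CPM in Dnmt3a KO. Tyrobp had 51.8 to 70.3 CPM and 46.8 to 109 CPM, and each of these markers overlapped between groups. Haemoglobin Hba-a1 reached 2303 CPM in Asxl1 KO 1, against 12.2 to 298 CPM elsewhere in the 2 groups. Its difference was 3.19 within run 1 and 2.30 within run 2, and that of Hbb-bt was 1.69 and 2.63. The erythroid gene Alas2 had 2.65, 14.6, 8.36 and 1.15 CPM in Asxl1 KO and 12.4 to 13.4 CPM in Dnmt3a KO. Of 12 tested erythroid and platelet genes, 5 had positive log2 fold changes, and the list median was -0.13. None of them passed over 17 libraries. With the 8 libraries 2 passed as higher, beside 15 of 12726 tested genes, as did 2 with the B cell covariate, beside 18 of 13881. Sox13, a marker of gamma delta T cells, was at 0 in all Asxl1 KO libraries and in Dnmt3a KO 2 and 3. The part of these cells in the differences between the knockouts, beyond the covariate fit, was not tested.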

How the data were processed

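RNA of 17 mouse spleen CD8 T cell libraries was sequenced from libraries made with a stranded total RNA kit, per the labels' protocols, although the molecule label reads genomic DNA. The deposited files hold raw counts per gene, made by the authors. Per the submitters' processing notes, the mm10 build, STAR 2.5.3a and DESeq2 1.26.0 were used, in roles left unstated. Which counter, annotation and strand setting were used is not given in the sources used. Of 24594 gene identifiers, 24570 were found in RefSeq (GRCm38.p6), which gave the names and coordinates.

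Counts were filtered by group (edgeR filterByExpr, minimum count 10 and total 15), scaled by TMM and tested in edgeR 4.0.16 (R 4.3.3, limma 3.58.1) with a robust quasi-likelihood F test. The model held group and run, used all 17 libraries and left 11 residual degrees of freedom. P-values were adjusted by Benjamini-Hochberg over all 13881 tested genes. The biological coefficient of variation was 0.604. CPM are TMM-scaled, and within-run values are differences of mean log2 CPM (prior count 2). The procedure was first tested on simulated data. No library repeated another: chi-square per degree of freedom between libraries of a group was 37.5 to 258.

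The rule for named genes took the targeted genes, 14 T cell genes whatever their test, up to 12 passing genes per direction with the largest change (mean of at least 5 CPM, same sign without the run term, no predicted genes, pseudogenes or markers of other cells), and, from each list, the passing members with the smallest p (at most 4). The genes and lists were chosen with earlier results of these data known. A withheld item is not reported here. Alternatives were DESeq2 1.42.0, its size factors in edgeR, other filters, other sets of libraries, other covariates and leaving out each library.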

Additional observations from a re-analysis of the deposited data

Results flagged for a closer look

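In 3 of 96 groups of 4 libraries, 1 library lay far from the others, judged by its gap to the nearest library as a share of the group's range on the log2 CPM scale (Dixon's ratio, past its 95% critical value). Chance marks about 1 in 20 groups by this measure. All 3 concern Asxl1 KO 2, which was low. For Ctla2a the ratio was 0.8908, with 7.089 in Asxl1 KO 2 and 8.434 to 8.599 in the other Asxl1 KO libraries. For Ctsw it was 0.8739, with 7.761 against 8.695 to 8.83. For Cxcr6 it was 0.8331, with 8.122 against 8.947 to 9.112.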

How the results depend on the processing

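All 49 genes kept their direction in every alternative, but the counts of passing genes moved. As higher and lower in Asxl1 KO, against 38 and 11, they were 15 and 4 with only the 8 libraries of the 2 groups, 4 and 2 with their 6 libraries in runs 1 and 2, 18 and 2 with the B cell covariate, 140 and 80 with DESeq2 (all 49 among them), and 161 and 148 without the low-count filter (21195 genes tested, median 0.12). Run 1 alone gave 742 and 559, and run 2 alone 0 and 0 with edgeR (272 and 237 at an unadjusted p under 0.05); DESeq2 was not run within runs. No run term gave 6 and 0. After seeing the data, leaving out Asxl1 KO 3 and 4 was added (24 and 6), as was using runs 1 and 2 of all groups (4 and 2). Leaving out 1 library gave 8 to 156 higher and 2 to 80 lower genes. DESeq2 size factors and the stricter filter kept both counts within 1.5 times. The causes were not tested.

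Same-numbered libraries deviated with r of 0.163, -0.206, 0.0245 and 0.0670, so the numbers were not taken to pair them. With a replicate block 2 genes were higher, Cd7 and Sh2d2a, and 0 lower (789 and 576 at an unadjusted p under 0.05). The log2 fold changes that turned sign belong to genes that did not pass. With the replicate block Asxl1 was 0.055, Slamf6 0.055 and Klrg1 -0.29. Within run 2 Asxl1 was 0.048, Dnmt3a 0.052, Tet2 -0.069, Tcf7 -0.75, Il7r -0.15 and Ifng -0.80. Within run 1 Slamf6 was 0.72, Klrg1 -0.093 and Cx3cr1 0.20. Without the run term Tcf7 was -0.064, Il7r -0.18 and Klrg1 -0.0022. With the B cell covariate Tcf7 was -0.11 and Slamf6 0.071. Slamf6 was 0.19 with the 8 and with the 6 libraries, 0.21 without Asxl1 KO 3 and 4, and 0.18 in runs 1 and 2 of all groups. Leaving out 1 library spanned -0.31 to 0.21 for Asxl1, -0.18 to 0.13 for Dnmt3a, -0.043 to 0.72 for Tet2, -0.094 to 0.45 for Tcf7, -0.65 to 0.017 for Slamf6, -0.19 to 0.31 for Klrg1, -0.25 to 0.34 for Cx3cr1 and -0.43 to 0.65 for Ifng.

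With 4 libraries a group, and only 2 Asxl1 KO libraries sharing a run with Dnmt3a KO, small differences were not detectable at this depth and spread.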

Other observations

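A further 14 passing genes lay outside the naming rule and were chosen after their values were seen. Among those higher in Asxl1 KO was Casp1, the inflammatory caspase that matures interleukin-1 (log2 fold change 0.86 ± 0.19 (SE), adjusted p = 0.0482). So were Rgs3, a second regulator of G protein signalling (log2 fold change 1.28 ± 0.25 (SE), adjusted p = 0.0181), and Lilr4b, a leukocyte immunoglobulin-like receptor (log2 fold change 0.79 ± 0.17 (SE), adjusted p = 0.0383). Casp1 had 227, 179.8, 255 and 254 CPM in Asxl1 KO and 92.6, 75.0, 135.64 and 156 CPM in Dnmt3a KO, without overlap. Lilr4b had 137, 435, 656 and 661 CPM against 94.1, 70.1, 327 and 279 CPM, and the run 1 libraries were lowest in both groups. Lilr4b has close paralogs whose reads could be shared. Also higher were Tapbpl, a peptide editor of class I molecules (log2 fold change 1.03 ± 0.23 (SE), adjusted p = 0.04996), and H2-Q10, a class I gene with near-identical relatives (log2 fold change 1.31 ± 0.29 (SE), adjusted p = 0.0483). In the fits leaving out 1 library, Casp1 passed in 3 of 17 (adjusted p up to 0.440, without Asxl1 KO 1), Lilr4b in 3 of 17 (adjusted p up to 0.243, without Dnmt3a KO 2), Tapbpl in 3 of 17 (adjusted p up to 0.427, without Asxl1 KO 1), H2-Q10 in 4 of 17 (adjusted p up to 0.770, without Asxl1 KO 1), Rgs3 in 14 of 17 (adjusted p up to 0.315, without Asxl1 KO 1) and Atp10d in 6 of 17 (adjusted p up to 0.318, without Asxl1 KO 1). Without Asxl1 KO 1 the log2 fold change of H2-Q10 was 0.55. The other 8 higher genes were AW112010, Mxd4, Padi2, Apol7b, Chst2, Pglyrp2, Krtcap2 and Sytl3, with log2 fold changes of 0.89 to 1.37. The lower gene was Atp10d, which the annotation gives as a transcribed pseudogene (log2 fold change -0.96 ± 0.21 (SE), adjusted p = 0.0391).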
